A study of Mus musculus with 24 samples.

Results

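The conversion of tryptophan to NAD in liver was examined through 10 genes: Tdo2, Afmid, Kmo, Kynu, Haao, Acmsd, Qprt, Nampt, Nadk and Nnmt. They were chosen by name from what their enzymes do, with earlier results of these data known. All gene probes of a mouse expression array that carry one of these names were taken. These are 10 of the 37074 gene names on the array, read by 19 probes, and 18 of the probes passed the filter on dim signals, with at least 1 for each gene. Livers of 24 male C57Bl/6J mice were measured, 1 single-colour array per mouse, in 4 groups of 6. The groups were LWT given vehicle, LWT given CL316243, LKO given vehicle and LKO given CL316243. LWT mice have PPARα in hepatocytes and LKO mice lack it there, as the series title gives it. The part of the Ppara gene that was removed, and what drove its removal, are not given in the sources used here. CL316243 is an agonist of the beta3 adrenergic receptor, a receptor known mainly from fat cells. It was given by gavage at 3 mg/kg at Zeitgeber time 10 h, and the vehicle was 0.5% carboxymethyl cellulose. All mice were fed freely and killed at Zeitgeber time 16 h, so the livers show 1 time point after 1 dose. The question was which steps of the route changed with CL316243, and whether the change differed between the genotypes.

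The liver is the main organ that makes NAD from the amino acid tryptophan. TDO2 opens the tryptophan ring, AFMID releases kynurenine, KMO and KYNU carry it on, and HAAO forms an unstable product that either closes to quinolinate, which QPRT takes towards NAD, or is diverted to full oxidation by ACMSD. NAMPT instead recycles nicotinamide, the product of NAD-consuming enzymes, NADK phosphorylates NAD to NADP, and NNMT methylates nicotinamide and so removes it from recycling.

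Levels are log2 signals relative to the 75th percentile of all gene spots of the same array, so a level of 1 is a signal 2 times that percentile. Probes bind with different strength, so a level is compared between mice for 1 probe and never between genes. A gene with several probes is represented by its brightest one. Differences were tested with limma over 21331 genes with Benjamini-Hochberg adjustment, and "rose", "fell" and "called" stand for an adjusted p under 0.05.

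Promoters are shown for Tdo2, Kmo and Nampt, whose response to CL316243 differed between the genotypes. Each runs from 250 bases before to 50 after the start of the gene, 5′ to 3′ on the strand of the gene, from RefSeq on GRCm38.p6. The capitals mark AGGTCA or its reverse complement TGACCT, the half-site that PPARα and other nuclear receptors bind.
Tdo2 (chr3:81975679-81975978, minus strand): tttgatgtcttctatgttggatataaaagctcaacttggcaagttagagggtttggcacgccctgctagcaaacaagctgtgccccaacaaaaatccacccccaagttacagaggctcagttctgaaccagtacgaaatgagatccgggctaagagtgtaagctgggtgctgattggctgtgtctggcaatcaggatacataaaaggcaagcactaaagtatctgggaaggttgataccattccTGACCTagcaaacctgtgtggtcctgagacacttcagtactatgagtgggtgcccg
Kmo (chr1:175631943-175632242, plus strand): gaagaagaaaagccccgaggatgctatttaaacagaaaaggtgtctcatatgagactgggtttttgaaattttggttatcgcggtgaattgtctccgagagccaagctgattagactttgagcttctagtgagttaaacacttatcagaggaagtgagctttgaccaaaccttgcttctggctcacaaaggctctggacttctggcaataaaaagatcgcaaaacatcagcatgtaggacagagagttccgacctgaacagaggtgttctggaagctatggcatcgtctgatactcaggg
Nampt (chr12:32820085-32820384, plus strand): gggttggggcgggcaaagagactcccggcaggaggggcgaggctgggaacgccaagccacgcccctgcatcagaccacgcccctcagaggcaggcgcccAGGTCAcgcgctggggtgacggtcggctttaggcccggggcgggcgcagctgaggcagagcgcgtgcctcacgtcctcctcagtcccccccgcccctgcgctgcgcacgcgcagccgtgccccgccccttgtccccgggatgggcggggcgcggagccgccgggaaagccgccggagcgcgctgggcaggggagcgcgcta
Promoters were found for 8 of the 10 genes, all but Kynu and Nnmt. Of these 8, 4 held the half-site on either strand, among them Tdo2 at 6 bases before the start and Nampt at 151. The rest of the 4 were genes without a called difference in response between the genotypes, and Kmo, with such a difference, had no match. The same 6 letters occurred in 16.3% of 32851 promoters of this length. That share counts promoters, whereas the 4 of 8 counts genes with a match in any of their promoters. The direct repeat AGGTCANAGGTCA, searched on both strands and itself made of half-sites, was in 0 of the 8 and in 0.0396% of all promoters. A match describes these letters in this window and shows no binding.

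Ppara, the gene removed in LKO hepatocytes, was read first as a check of the labels. Its median level in LWT was 5.66 with vehicle and 6.35 with CL316243, and in LKO it was 5.01 and 4.51. LKO lay below LWT by 1.91 under CL316243 (SE 0.204, adjusted p = 3.6e-07 by limma). Under vehicle the difference was -0.68 (SE 0.204) and missed the threshold (adjusted p = 0.158), although no LKO mouse overlapped an LWT mouse (exact permutation p = 0.00216, two-sided, the smallest that 6 against 6 allows). The same probe was called there without LKO CL316243 replicate 3 (adjusted p = 0.0018), and the second Ppara probe was lower in LKO by 0.92 (difference -0.92, SE 0.199, adjusted p = 0.0188 in the fit over all probes). Over the 24 arrays the reference percentile lay between 397.4 and 577.7 intensity units, and 26985 to 34202 of 56605 probes stood well above background. The hepatocyte markers Alb, Apoa1, Ttr, Tat and Serpina1b summed to 2490 to 3370 times that percentile in all mice, and 1 of the 5 was called, Apoa1, lower with CL316243 in LKO. The 6 macrophage markers summed to 29.5 to 72.5. Of 4 bile duct markers, Sox9 rose with CL316243 in LWT (1.47) and in LKO (2.18), and Krt19, Krt7 and Epcam were not called in either. The sums of the 4 in LWT were 0.586 to 1.25 with vehicle and 0.928 to 2.88 with CL316243, and in LKO 0.654 to 1.23 and 1.38 to 5.72. Of 6 neutrophil markers 5 were tested. Ly6g (-0.38) and Camp (-0.41) fell in LWT, and Elane (0.34) and Csf3r (0.26) rose in LKO. The response of Camp differed between the genotypes (0.42, adjusted p = 0.0353 by limma). Under CL316243 Camp (0.40) and Elane (0.28) were higher in LKO. The sum of the 5 was 81.9 to 103 in the vehicle groups and 96.9 to 121 in the CL316243 groups. It adds linear signals and is nearly all Csf3r, with group means of 6.44 to 6.70. The highest group mean of the others was 0.12 (Elane). In the bile duct sums Sox9 was the brightest marker. The part of these cell types in the results below was not tested, and in whole liver fewer cells of a type and less RNA per cell cannot be told apart.

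CL316243 changed most of the route in LWT. Of the 10 genes 8 were called, against 38.3% of all genes tested. Tdo2, Kmo and Nnmt rose, and Afmid, Kynu, Acmsd, Qprt and Nampt fell. In LKO 6 of 10 were called, against 40.3% of all genes: Nadk and Nnmt rose, and Afmid, Kmo, Haao and Qprt fell. The median difference over the 10 was -0.25 in LWT and -0.22 in LKO, beside 0.01 and 0.03 over all genes. Afmid, Qprt and Nnmt were called in the same direction in both genotypes, and Kmo was called in opposite directions. Treated and untreated mice did not overlap for 3 of the 10 genes in LWT (Tdo2, Afmid and Nampt), beside 20.4% of all genes, and for 4 in LKO (Afmid, Haao, Qprt and Nadk), beside 20.8%. The 2 comparisons use separate mice. Without CL316243 replicate 3 of each genotype, a choice made after seeing the data, the counts were 8 in LWT and 5 in LKO, against 38.7% and 38% of all genes.

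**Figure D1:**
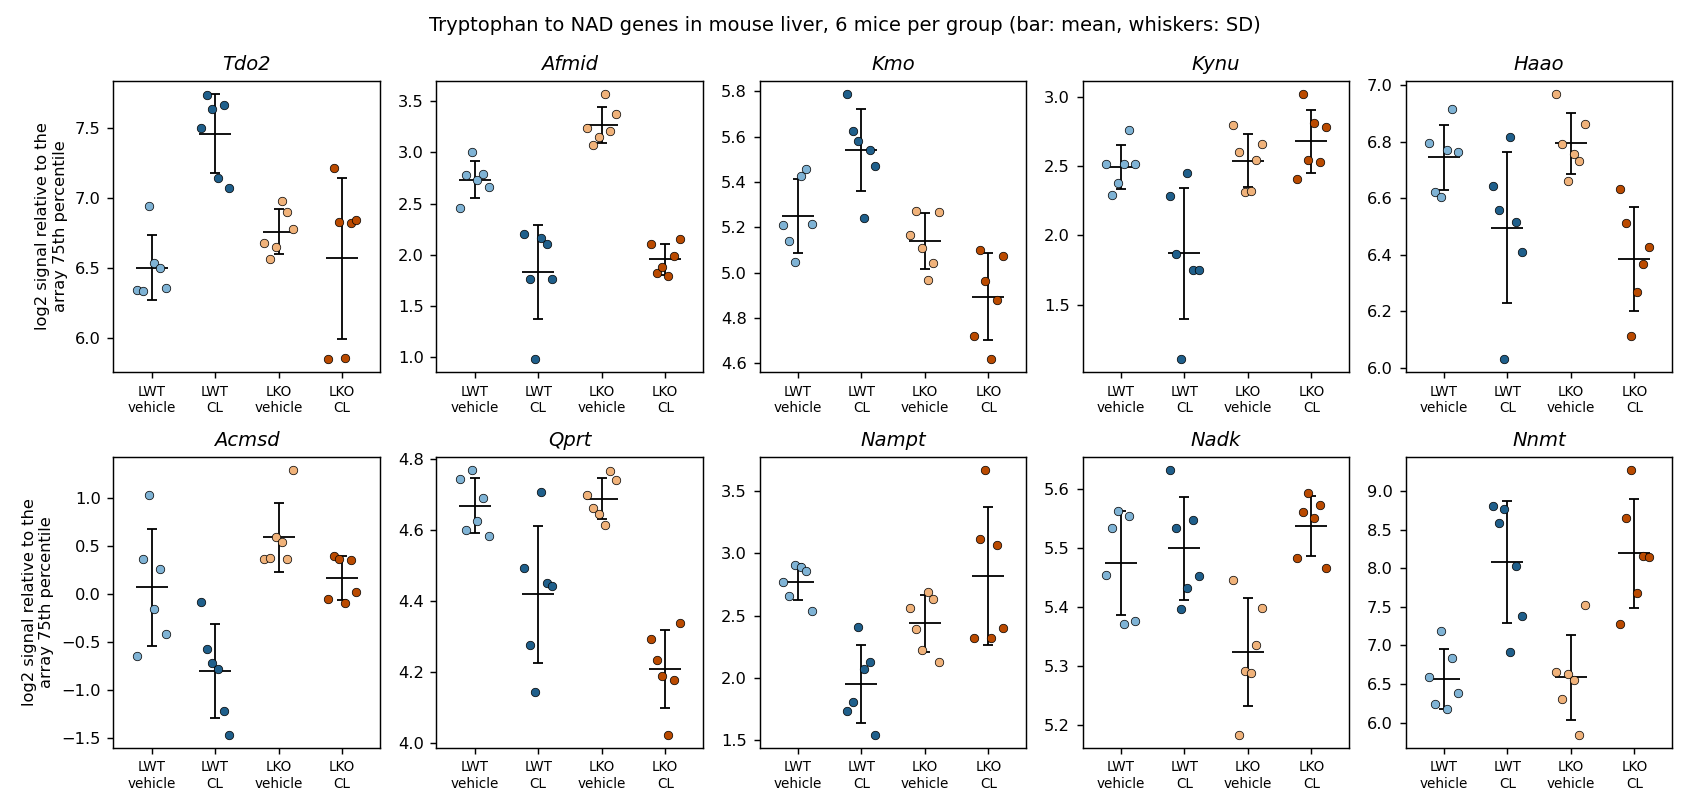
Log2 signal relative to the 75th percentile of the array (y axis, a separate range in each panel) in the 4 groups (x axis, CL for CL316243) for each of the 10 genes, with 1 point per mouse, 6 mice per group, the mean as a bar and the SD as whiskers. The 6 LWT mice given CL316243 sit above all LWT vehicle mice for Tdo2 and below all of them for Afmid and Nampt.

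**Figure D2:**
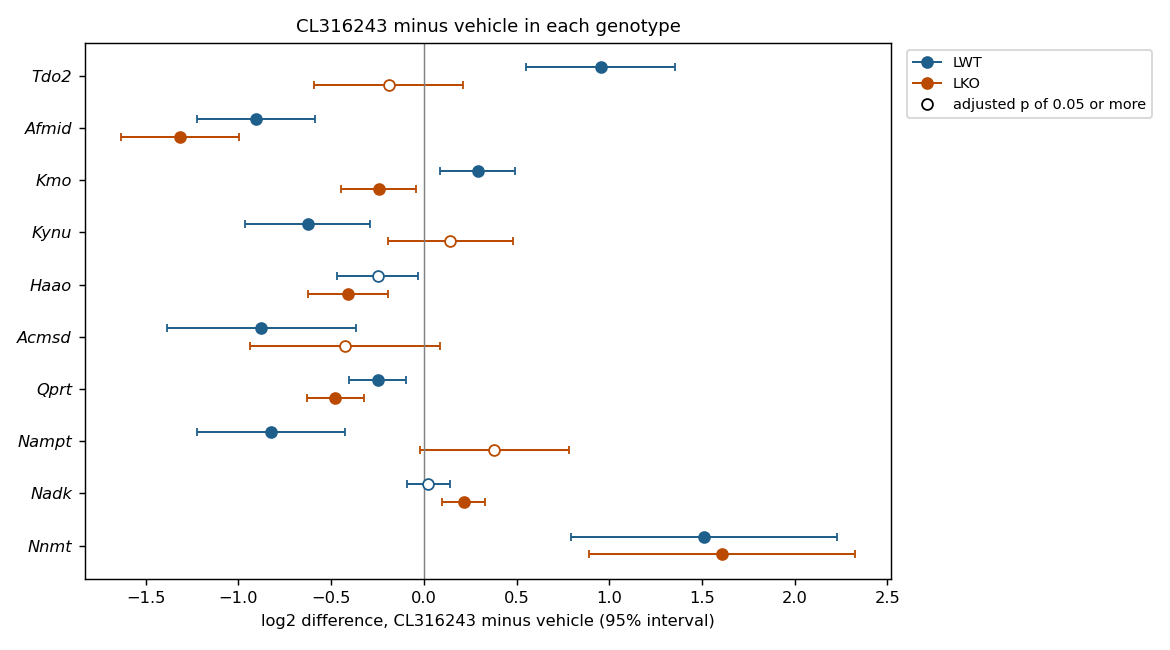
Log2 difference, CL316243 minus vehicle (x axis), for each gene (y axis, in pathway order) in LWT (blue) and LKO (orange), with 95% intervals from limma and open symbols at an adjusted p of 0.05 or more. Tdo2 is at 0.95 in LWT and -0.19 in LKO, Nampt at -0.82 and 0.38, while Nnmt lies beyond 1.5 in both.

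Tdo2, the enzyme of the first and rate-limiting step, is read by 1 probe (mm9, chr3:81765359-81765418, minus strand). Its levels (lowest, median, highest) were 6.34, 6.43 and 6.94 in LWT vehicle, 7.08, 7.57 and 7.73 in LWT CL316243, 6.56, 6.73 and 6.98 in LKO vehicle, and 5.86, 6.83 and 7.21 in LKO CL316243. Every LWT mouse given CL316243 was above every LWT vehicle mouse, whereas the LKO groups overlapped. CL316243 raised Tdo2 by 0.95 in LWT (SE 0.194, 1.94-fold, adjusted p = 0.000482). In LKO the difference was -0.19 (SE 0.194, adjusted p = 0.462), with a 95% interval of -0.59 to 0.21. LKO mice given CL316243 were uneven, with replicates 1 and 4 near 5.86 and the other 4 between 6.82 and 7.21. Within the 3 slides, which held 2 mice of each group, the LKO difference was 0.31, -0.27 and -0.60 and the LWT difference 0.46, 1.34 and 1.06. The 60 bases that the Tdo2 probe holds are shown here as the single readout behind these values.
Tdo2 probe: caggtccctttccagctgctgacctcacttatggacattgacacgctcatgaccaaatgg

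Afmid, the formamidase that releases kynurenine, moved the other way from Tdo2 in LWT. Its brightest probe (chr11:117700730-117700789, plus strand) gave 2.46, 2.75 and 3.00 in LWT vehicle, 0.98, 1.94 and 2.20 in LWT CL316243, 3.08, 3.22 and 3.57 in LKO vehicle, and 1.79, 1.93 and 2.16 in LKO CL316243. CL316243 and vehicle mice did not overlap in either genotype. Afmid fell by 0.91 in LWT (SE 0.153, adjusted p = 7.45e-05) and by 1.31 in LKO (SE 0.153, adjusted p = 1.24e-06). The difference between the 2 effects, -0.41 (SE 0.217), missed the threshold (adjusted p = 0.336). It was called without LWT CL316243 replicate 3, the lowest of its group (-0.58, adjusted p = 0.0258). The other probe fell by 1.11 in LWT and by 1.57 in LKO.

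Kmo, the hydroxylase that acts on kynurenine, showed smaller differences of opposite sign. Its brightest probe (chr1:177590673-177590732, plus strand) gave 5.05, 5.21 and 5.46 in LWT vehicle, 5.24, 5.56 and 5.79 in LWT CL316243, 4.97, 5.14 and 5.27 in LKO vehicle, and 4.62, 4.92 and 5.10 in LKO CL316243. Treated and untreated mice overlapped in both genotypes. Kmo rose by 0.29 in LWT (SE 0.0975, adjusted p = 0.0213) and fell by 0.24 in LKO (SE 0.0975, adjusted p = 0.0496). The LWT call was lost without LWT vehicle replicate 3 or LWT CL316243 replicate 1 (0.24 to 0.25, adjusted p 0.0545 to 0.0604). The LKO call was close to the threshold and was lost in 16 of 24 fits that left out 1 mouse. It held without LWT vehicle replicates 3, 4 or 5, LWT CL316243 replicates 1 or 4, LKO vehicle replicate 4, and LKO CL316243 replicates 2 or 6. The second Kmo probe, tested in a fit over all 32037 kept probes, rose by 0.34 in LWT (SE 0.107, adjusted p = 0.0152) and fell by 0.45 in LKO (SE 0.107, adjusted p = 0.00199). In that fit the brightest probe missed the threshold in LKO (adjusted p = 0.0503).

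Kynu, which splits the side chain off the kynurenines, fell in LWT. Its brightest probe (chr2:43538117-43538176, plus strand) gave 2.29, 2.52 and 2.76 in LWT vehicle, 1.11, 1.81 and 2.45 in LWT CL316243, 2.31, 2.57 and 2.79 in LKO vehicle, and 2.40, 2.66 and 3.02 in LKO CL316243. The LWT groups overlapped only through their extremes, and the treated LWT mice spread more widely than any other group of this gene. The LWT difference was -0.63 (SE 0.163, adjusted p = 0.00399) and the LKO difference 0.14 (SE 0.163, adjusted p = 0.514). A second probe, 60 bases from base 766 of another transcript, gave -0.15 in LWT (SE 0.11, adjusted p = 0.314), so the fall depends on the probe. The remaining one was well above background on 0 of 24 arrays and was not tested. The second probe is shown because it departs from the first.
Kynu probe (mm9, chr2:43459748-43459807, plus strand): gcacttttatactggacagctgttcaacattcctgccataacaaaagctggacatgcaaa

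Haao, the dioxygenase whose product stands at the branch, fell in LKO. Its brightest probe (chr17:84230696-84230755, minus strand) gave 6.61, 6.77 and 6.92 in LWT vehicle, 6.03, 6.54 and 6.82 in LWT CL316243, 6.66, 6.77 and 6.97 in LKO vehicle, and 6.11, 6.40 and 6.63 in LKO CL316243. Only the LKO groups were separate. The difference was -0.41 in LKO (SE 0.104, adjusted p = 0.00336) and -0.25 in LWT (SE 0.104, adjusted p = 0.0639). The LWT difference was called without LWT CL316243 replicate 4 (adjusted p = 0.0176) or LKO CL316243 replicate 3 (adjusted p = 0.0485). A dimmer probe, placed on another transcript with this gene name, fell by 1.34 in LWT (SE 0.453) and by 1.66 in LKO (SE 0.453). In LKO that probe had 1 mouse of 6 not well above background, replicate 3 at -5.92.

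At the branch, ACMSD turns the product of HAAO away from NAD, and QPRT takes the quinolinate formed from the rest towards it. Acmsd (chr1:129664080-129664139, plus strand) gave -0.65, 0.06 and 1.03 in LWT vehicle, -1.46, -0.75 and -0.08 in LWT CL316243, 0.37, 0.46 and 1.29 in LKO vehicle, and -0.10, 0.19 and 0.40 in LKO CL316243. LWT vehicle mice spread widely and overlapped the treated mice. Acmsd fell by 0.88 in LWT (SE 0.246, adjusted p = 0.00707), and the LKO difference was -0.43 (SE 0.246, adjusted p = 0.177). Qprt (brightest probe chr7:134251475-134251534, minus strand) gave 4.58, 4.66 and 4.77 in LWT vehicle, 4.14, 4.45 and 4.71 in LWT CL316243, 4.62, 4.68 and 4.77 in LKO vehicle, and 4.02, 4.21 and 4.34 in LKO CL316243. Its LKO groups were separate and its LWT groups overlapped. Qprt fell by 0.25 in LWT (SE 0.0746, adjusted p = 0.011) and by 0.48 in LKO (SE 0.0746, adjusted p = 3.33e-05). The dim second Qprt probe, on another transcript, gave -0.03 in LWT (adjusted p = 0.91) and 0 in LKO (SE 0.165). It showed the fall in neither genotype. With the mean of both probes the LWT call was lost (adjusted p = 0.262). The LKO fall was called under all 11 alternatives, from -0.52 to -0.24 (highest adjusted p = 0.046 by limma).

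Nampt, the enzyme of nicotinamide recycling, is read by 1 probe (chr12:33535475-33535534, plus strand). It gave 2.54, 2.81 and 2.91 in LWT vehicle, 1.54, 1.94 and 2.41 in LWT CL316243, 2.12, 2.47 and 2.69 in LKO vehicle, and 2.32, 2.73 and 3.67 in LKO CL316243. All treated LWT mice were below all LWT vehicle mice, and the LKO groups overlapped. Nampt fell by 0.82 in LWT (SE 0.193, 1.77-fold, adjusted p = 0.00176). In LKO the difference was 0.38 (SE 0.193, adjusted p = 0.122), with a 95% interval of -0.02 to 0.78. Of the treated LKO mice, replicates 2, 3 and 5 were between 3.07 and 3.67 and replicates 1, 4 and 6 between 2.32 and 2.40. Within slides the LKO difference was 1.22, -0.11 and 0.03, and the LWT difference -0.92, -0.61 and -0.95.

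Of the 2 genes that act on the products, Nadk, the kinase that makes NADP, had the narrowest range of group means among the 10. Its brightest probe (chr4:154964896-154964955, plus strand) gave 5.37, 5.49 and 5.56 in LWT vehicle, 5.40, 5.49 and 5.63 in LWT CL316243, 5.18, 5.31 and 5.45 in LKO vehicle, and 5.47, 5.56 and 5.59 in LKO CL316243. Only the LKO groups were separate. Nadk rose by 0.21 in LKO (SE 0.0563, adjusted p = 0.00424), and the LWT difference was 0.02 (SE 0.0563, adjusted p = 0.779). The second Nadk probe rose in both, by 0.26 in LWT (SE 0.0594, adjusted p = 0.00126) and by 0.34 in LKO (SE 0.0594, adjusted p = 0.000108), so the LWT value depends on the probe.

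Nnmt, the nicotinamide methyltransferase, showed the largest rise of the 10 genes in both genotypes. Its brightest probe (chr9:48399997-48400056, minus strand) gave 6.17, 6.49 and 7.19 in LWT vehicle, 6.91, 8.31 and 8.80 in LWT CL316243, 5.85, 6.59 and 7.53 in LKO vehicle, and 7.28, 8.15 and 9.27 in LKO CL316243. Every treated mouse was above the mean of its vehicle group, with some overlap of single mice. Nnmt rose by 1.51 in LWT (SE 0.346, 2.85-fold, adjusted p = 0.00141) and by 1.61 in LKO (SE 0.346, 3.05-fold, adjusted p = 0.00081). The difference between the effects was 0.10, with a wide 95% interval of -0.92 to 1.11. A second probe, whose 60 bases span 1303 bases of the genome, rose by 1.84 and 1.62. The last, near the start of its transcript, rose by 0.97 in LWT and gave 0.56 in LKO (SE 0.277, adjusted p = 0.112). The second probe is shown because its letters are split over that stretch, while those of the other 2 are not.
Nnmt probe (mm9, chr9:48411626-48412928, minus strand): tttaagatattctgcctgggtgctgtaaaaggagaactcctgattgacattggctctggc

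**Figure D3:**
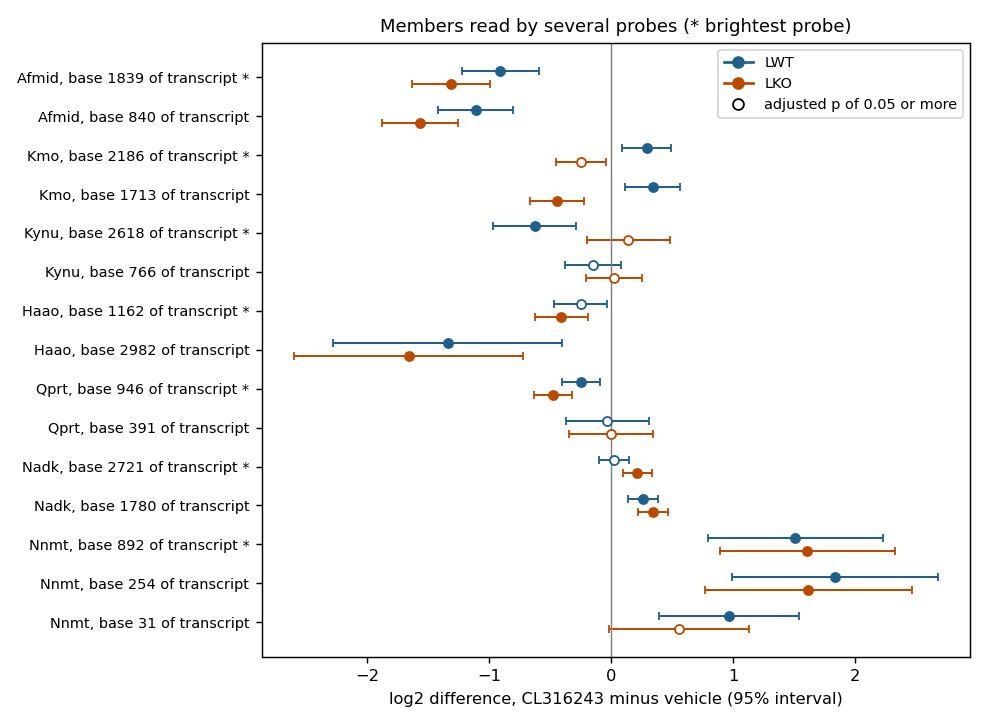
Log2 difference, CL316243 minus vehicle (x axis), for every kept probe of the genes with more than 1 kept probe (y axis, with the first base of the probe in its transcript), in LWT (blue) and LKO (orange), with 95% intervals and open symbols at an adjusted p of 0.05 or more in the fit over all probes. Both Afmid probes lie left of 0 in both genotypes, while the second Kynu probe lies at -0.15 in LWT where the brightest is at -0.63.

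The response to CL316243 differed between the genotypes for 3 of the 10 genes, against 5.41% of all genes, 2.17% with the higher and 3.24% with the lower response in LKO. The difference, LKO effect minus LWT effect, was 1.204 for Nampt (SE 0.273, adjusted p = 0.00951), -1.14 for Tdo2 (SE 0.275, adjusted p = 0.0147) and -0.54 for Kmo (SE 0.138, adjusted p = 0.023). So the enzyme of the first step and a later hydroxylase had the lower response in LKO, and the recycling enzyme the higher. Within slides the difference was 2.14, 0.50 and 0.98 for Nampt, -0.15, -1.61 and -1.66 for Tdo2, and -0.38, -0.75 and -0.48 for Kmo, of 1 sign in each gene. Kynu lay just past the threshold (0.77, SE 0.23, adjusted p = 0.0528) and was called without any 1 of 5 mice, namely LWT CL316243 replicates 1 or 4, LKO vehicle replicate 1, or LKO CL316243 replicates 1 or 3 (0.80 to 0.89, adjusted p 0.0143 to 0.0462). In the fit over all kept probes it was called (adjusted p = 0.0499), and the second Kynu probe gave 0.17 (SE 0.155, adjusted p = 0.605). Without CL316243 replicate 3 of both genotypes, 5 of the 10 were called, against 7.28% of all genes, the same 3 with Kynu higher and Afmid lower. For the other 6 genes the adjusted p was 0.191 or more, which does not show that their responses were alike.

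Under vehicle 0 of the 10 genes were called by limma between the genotypes, against 1.18% of all genes. With so small a share over all genes, 0 of 10 does not show that the genotypes were alike. Of the 10, 3 had an unadjusted p under 0.05 (Afmid, Nadk and Acmsd), against 8.08% of all genes. A fit on the vehicle groups alone called 1 (Afmid, adjusted p = 0.0221), against 1.27% of all genes. Afmid was the member whose groups did not overlap, with LKO above LWT by 0.54 (SE 0.153, adjusted p = 0.119, exact permutation p = 0.00216), where 1.8% of all genes were separate. Without LWT CL316243 replicate 3, which belongs to neither vehicle group but enters the shared spread, Afmid was called (adjusted p = 0.00735).

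Under CL316243, LKO and LWT livers differed in 5 of the 10 genes, against 15.9% of all genes. LKO exceeded LWT in Kynu by 0.81 (SE 0.163, adjusted p = 0.00109), in Acmsd by 0.97 (SE 0.246, adjusted p = 0.00816) and in Nampt by 0.87 (SE 0.193, adjusted p = 0.00274), where 7.74% of all genes were higher and 8.17% lower. Tdo2 was lower by 0.89 (difference -0.89, SE 0.194, adjusted p = 0.0024), and Kmo by 0.65 (difference -0.65, SE 0.0975, adjusted p = 4.37e-05). Only for Kmo were all 6 LKO mice beyond all 6 LWT mice, as in 6.57% of all genes. The second Kynu probe gave a smaller difference of 0.32 (SE 0.11, adjusted p = 0.0496). These comparisons share the CL316243 groups with those above and are not separate evidence. Qprt was -0.21 (SE 0.0746, adjusted p = 0.0591) and crossed the threshold without LWT CL316243 replicates 2 or 3 or LKO CL316243 replicate 6 (-0.27 to -0.24, adjusted p 0.0104 to 0.0451).

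**Figure D4:**
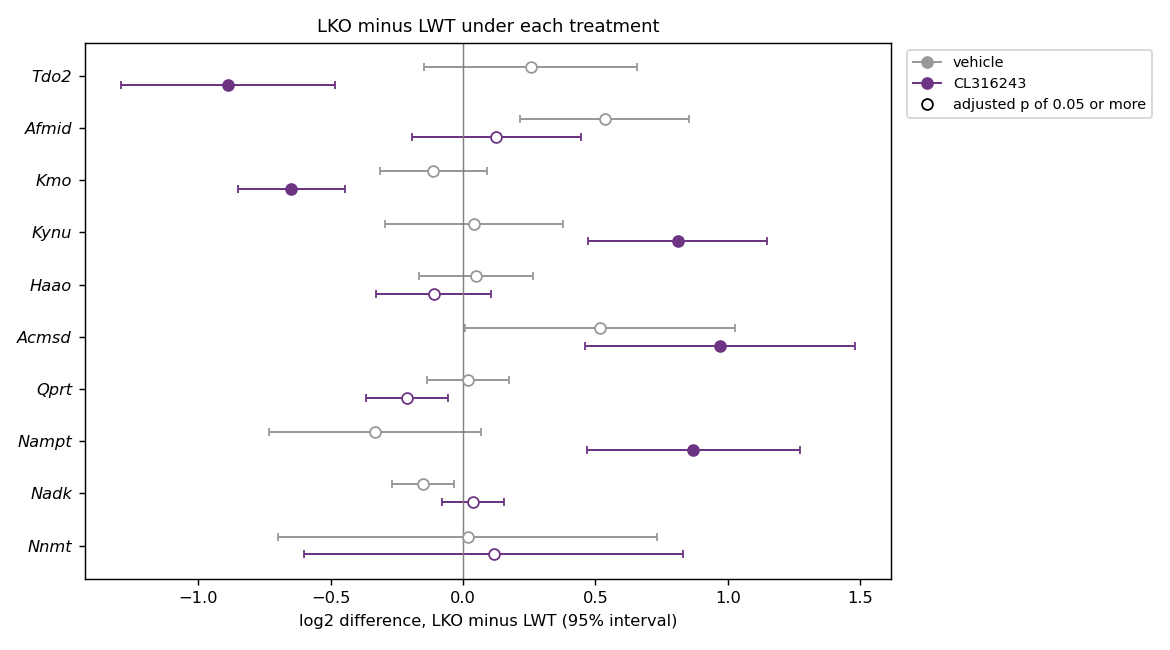
Log2 difference, LKO minus LWT (x axis), for each gene (y axis) under vehicle (grey) and under CL316243 (purple), with 95% intervals from limma and open symbols at an adjusted p of 0.05 or more. All 10 vehicle symbols are open, and under CL316243 Kynu, Acmsd and Nampt are filled to the right of 0 and Tdo2 and Kmo to the left.

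Ordered by group mean, no gene separated all 4 groups. Tdo2 was lowest in LWT vehicle and highest in LWT CL316243, and in that order only LWT CL316243 against LKO vehicle, the top pair, did not overlap. Afmid ran from LWT CL316243 through LKO CL316243 and LWT vehicle to LKO vehicle, over 1.44 log2 units (2.71-fold), and only the 2 treated groups overlapped as neighbours. For the other 8 genes every pair of neighbouring groups overlapped. Nadk covered 0.21 units from lowest to highest group mean and Nnmt 1.63.

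Beyond the group means, the levels of some genes ran together from mouse to mouse. With each group's mean removed, Pearson's r over the 24 mice was 0.76 between Kynu and Haao, 0.67 between Afmid and Qprt and 0.66 between Haao and Qprt. A single mouse, LWT CL316243 replicate 3, was the lowest of its group for each of these genes (Afmid 0.98, Kynu 1.11, Haao 6.03, Qprt 4.14). The r values without it were not computed. The median over all 45 pairs was 0.14, and the lowest was -0.36, between Haao and Nampt. Both genes of a pair come from the same array and so share its RNA, labelling and scaling, and no test was made.

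For the 3 genes whose response differed between genotypes, the 3 genes with the most similar levels over the 24 mice were taken from 14041, as a description. All points share the 4 groups. For Tdo2 these were Asic5 (r = 0.90), an ion channel gene that stands next to it in the RefSeq table, H2-M2 (r = 0.88) and Vmn2r111 (r = 0.86). Asic5 rose by 2.63 in LWT (SE 0.265, adjusted p = 1.04e-07) and gave 0.05 in LKO (SE 0.265, adjusted p = 0.893). For Kmo they were Lrp1, a lipoprotein receptor, Grhpr, the glyoxylate reductase, and Pex3, of peroxisome formation, each at r = 0.87. The response differed between the genotypes for Grhpr (-0.76, adjusted p = 3.3e-06 by limma) and Pex3 (-0.70, adjusted p = 1.08e-05). For Lrp1 it was not called (-0.215, SE 0.131, adjusted p = 0.416). Lrp1 was lower in LKO under vehicle (difference -0.38, SE 0.0923, adjusted p = 0.0434). For Nampt the 3 most similar genes were Gdap10 (r = 0.91), Slc17a2 (r = 0.85) and Selp (r = 0.83). Gdap10 lies within the span of Nampt in that table, and whether its probe reads Nampt transcripts was not tested.

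The rest of the pathway was followed in 4 lists of 39 genes, 35 of which were tested. Ido1, Nmnat2, Bst1 and Slc5a8 did not pass the filter. In LWT 9 of the 35 rose and 14 fell with CL316243, and in LKO 9 rose and 16 fell, beside 18.9% and 20.9% of all genes that rose and 19.4% that fell in each. The median difference was -0.29 in LWT and -0.32 in LKO.

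Of the 5 other kynurenine enzymes tested, 3 fell in LWT and 4 in LKO. Ido2, which like TDO2 opens the tryptophan ring, fell by 2.22 in LWT (SE 0.224, adjusted p = 1.07e-07) and by 2.09 in LKO (SE 0.224, adjusted p = 5.03e-07). Its levels were 3.90, 4.36 and 4.56 in LWT vehicle, 1.26, 2.11 and 2.91 in LWT CL316243, 4.04, 4.24 and 4.33 in LKO vehicle, and 1.33, 2.25 and 2.64 in LKO CL316243, with treated and untreated mice apart in both genotypes. Kyat1, a kynurenine aminotransferase named Ccbl1 on the array, fell by 1.198 in LWT (adjusted p = 7.4e-06) and by 0.84 in LKO (adjusted p = 0.000368). Aldh8a1, the dehydrogenase after ACMSD, fell by 0.78 in LWT (adjusted p = 0.00172) and by 1.41 in LKO (adjusted p = 3.98e-06). For neither was the difference between the 2 effects called (adjusted p = 0.457 for Kyat1 and 0.172 for Aldh8a1). Kyat3, a related aminotransferase named Ccbl2 on the array, was lower in LKO than in LWT by 1.47 under vehicle (difference -1.47, SE 0.308, adjusted p = 0.0132) and by 1.77 under CL316243 (difference -1.77, SE 0.308, adjusted p = 0.000251), with no overlap in either.

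Of the 9 tested genes of NAD synthesis and salvage, 2 rose and 5 fell in LWT and 1 rose and 5 fell in LKO. Nmnat3, which forms NAD from the mononucleotide, fell by 1.05 in LWT (SE 0.213, adjusted p = 0.000478) and by 1.09 in LKO (SE 0.213, adjusted p = 0.000347). Nmrk1, the nicotinamide riboside kinase, fell by 2.003 in LKO (SE 0.473, adjusted p = 0.0018), where its mice ran from -1.98 to 1.64, and gave -0.14 in LWT (adjusted p = 0.848). The difference between these effects, -1.86, was not called (adjusted p = 0.117). Under CL316243 Nmrk1 was lower in LKO (difference -1.996, adjusted p = 0.00477), a call lost when only those 2 groups were fitted (adjusted p = 0.0508). Pnp, the purine nucleoside phosphorylase, was higher in LKO under CL316243 by 0.60 (adjusted p = 0.0257), a call lost with only those groups (adjusted p = 0.137) and without LWT CL316243 replicates 4 or 6 or LKO CL316243 replicates 2 or 3 (0.43 to 0.57).

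Among 15 tested genes of NAD and nicotinamide use, 3 rose and 5 fell in LWT, and 4 rose and 6 fell in LKO. Sirt1, an NAD-dependent deacetylase, had a different response between genotypes (0.53, SE 0.114, adjusted p = 0.00599). It was the 1 gene of the 35 called for this difference, against 5.41% of all genes. Under CL316243 its level in LKO exceeded that in LWT by 0.42 (SE 0.0807, adjusted p = 0.000727). With the mean of its probes both calls were lost (adjusted p = 0.766 and 0.307). Aox3, an aldehyde oxidase that acts on nicotinamide products, was lower in LKO by 0.77 under vehicle (difference -0.77, adjusted p = 0.0263) and by 0.76 under CL316243 (difference -0.76, adjusted p = 0.00432). The vehicle call was lost without LWT vehicle replicates 1 or 4 or LKO vehicle replicates 1, 2, 3 or 6 (-0.76 to -0.68, adjusted p 0.0591 to 0.0816).

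Of the 6 transporters tested, 4 rose and 1 fell in each genotype. Slc25a51, the mitochondrial NAD carrier, rose by 1.26 in LWT (SE 0.396, adjusted p = 0.0146) and by 1.31 in LKO (SE 0.396, adjusted p = 0.011). Slc16a10, which carries aromatic amino acids, rose by 0.91 (adjusted p = 0.0155) and by 1.25 (adjusted p = 0.00153), and Slc3a2, the shared chain of several amino acid carriers, by 0.71 (adjusted p = 0.0111) and by 1.22 (adjusted p = 0.000111). Slc3a2 did not overlap between treated and untreated mice in either genotype.

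**Figure D5:**
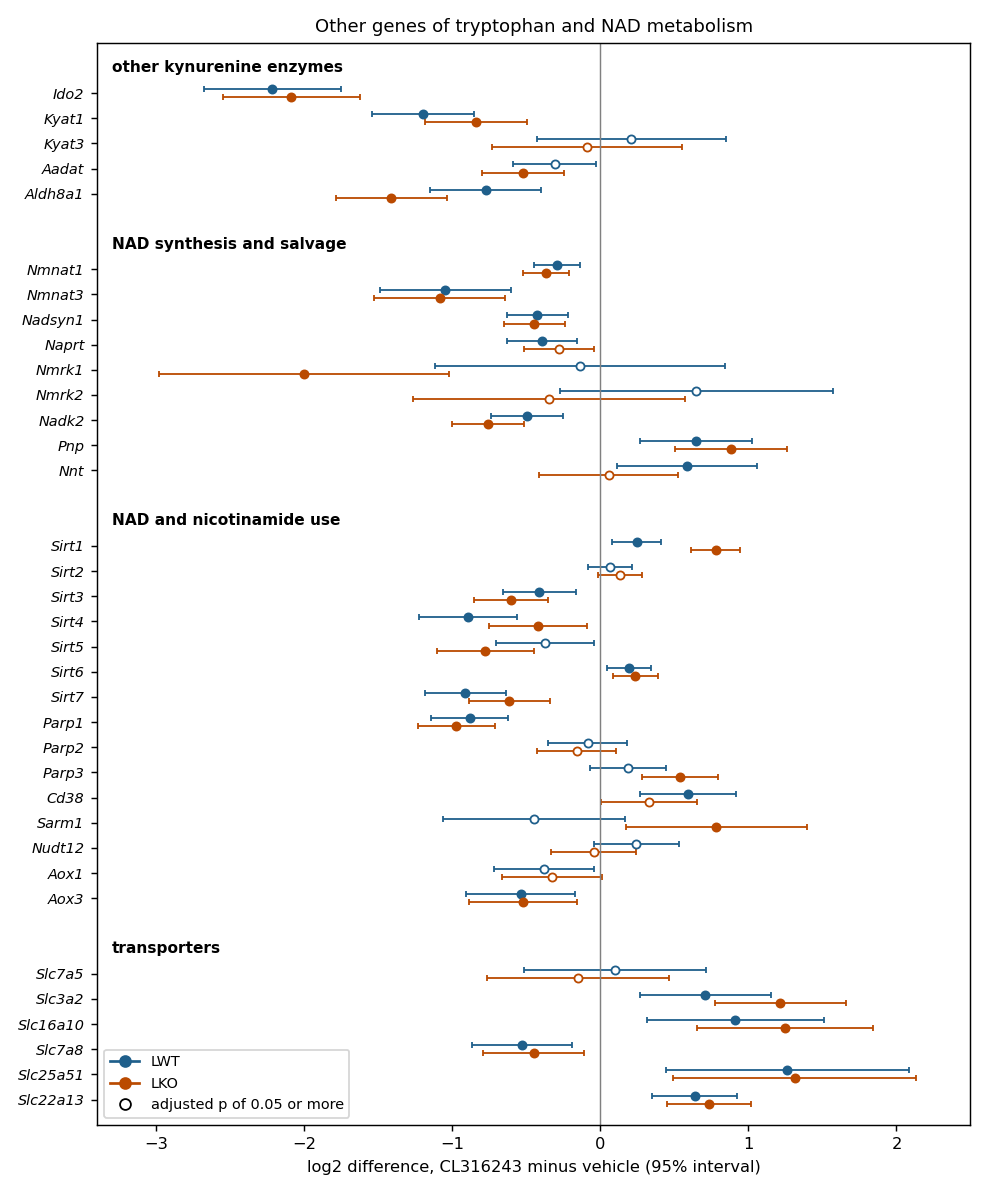
Log2 difference, CL316243 minus vehicle (x axis), for the 35 tested genes of the 4 other lists (y axis, grouped by list), in LWT (blue) and LKO (orange), with 95% intervals from limma and open symbols at an adjusted p of 0.05 or more. Ido2 lies beyond -2 in both genotypes, and Slc25a51, Slc16a10 and Slc3a2 lie to the right of 0 in both.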

How the data were processed

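Scanner intensities of 24 single-colour Agilent arrays (Cy3, 200 ng of liver RNA per mouse) were deposited by the authors from Feature Extraction 10.10.1.1, background-subtracted, per the file headers. Probe positions there are on mm9. The series table that was deposited holds log2 values that, tested on the files, differed from quantile-normalized log2 median signals by a median of 0.00422 over 31367 probes, and it served as an alternative. Of the columns of that table, 0 lacked a sample.

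From the processed intensity, log2 minus the 75th percentile of each array was taken, outlier spots were removed, spots of a probe averaged, and a probe was kept if 1 or more groups had it well above background in at least 4 of their 6 mice and each group had at least 3 values. This left 32037 probes and 21331 genes. One mean per group was fitted with limma 3.58.1 in R 4.3.3 (prior df 2.17, residual df 20), reading with data.table (version 1.17.8) and drawing with matplotlib 3.10.9. The median standard error was 0.132 between 2 groups and 0.187 for the interaction, and the number of arrays limits the precision. Exact permutation tests ran over 924 splits. A simulation for CL316243 in LWT drew independent normal noise for 21331 genes and changed only 50 genes at each of 4 sizes. Of these, 26, 38, 47 and 50 of 50 genes changed by 0.5, 1, 2 and 4 log2 units were recovered, with 4 false calls among the unchanged genes. In the data 38.3% of genes were called in this comparison, so these figures do not carry over to it.

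Arrays were grouped by the genotype and treatment in the labels, which name 6 mice per group. Each of 3 slides held 2 mice of every group. Deviations of same-numbered mice from their group means correlated at -0.22 to 0.45 over 36 pairs, with 10 above 0.1, among them replicates 3, 4 and 6 of the CL316243 groups at 0.436, 0.454 and 0.301. Since not every pair was above 0.1 and the labels tie no numbers together, the mice were treated as unpaired. The genes and lists were chosen with earlier results of these data known. The text names the 10 genes, Ppara, per comparison the 3 largest called changes in each direction among the other pathway lists, and the 3 genes most correlated with each gene whose interaction was called, passing over clone and gene model names; further pathway or similar genes and single mice are named after their values were seen. Promoters came from RefSeq on GRCm38.p6. Alternatives were background correction, scaling, the series table, the filter, slide and row, the replicate block, the probe rule, the groups fitted and single mice left out.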

Additional observations from a re-analysis of the deposited data

Results flagged for a closer look

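Single mice stood apart from the other 5 of their group by more than Dixon's 95% limit in 8 of 92 groups examined, where chance flags about 1 in 20. Among the 10 genes these were LWT vehicle replicate 3 for Tdo2, at 6.94, LWT CL316243 replicate 3 for Afmid, at 0.98, and LKO vehicle replicate 6 for Acmsd, at 1.29. For Ppara they were LWT CL316243 replicate 3, at 5.70, and LKO CL316243 replicate 3, at 3.06, both the lowest of their group. For the other pathway genes they were LWT vehicle replicate 6 for Slc16a10, at 0.31, LKO vehicle replicate 2 for Slc3a2, at 2.604, and LWT vehicle replicate 3 for Aldh8a1, at 1.32.

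The response to CL316243 differed between LKO and LWT by limma's interaction test for Tdo2 (-1.14), Kmo (-0.54), Nampt (1.204), Ppara itself (-1.24, SE 0.289, adjusted p = 0.012) and Sirt1 (0.53).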

How the results depend on the processing

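The 10 genes in 5 comparisons were recomputed under 11 alternatives (540 values), of which 513 kept their direction and their side of the threshold, 8 lost a call, 13 gained one and 6 changed sign. None of those 6 was called in either setting. With the mean of all kept probes, Haao (-0.063) and Qprt (-0.057) changed sign under vehicle, and so did Nnmt for the interaction (-0.18) and between genotypes under CL316243 (-0.00044). Nadk in LWT became -0.053 with quantile normalization and -0.052 with the series table. The count of called genes between genotypes under vehicle was 1 when only those groups were fitted. Kmo in LWT was lost with the series table (adjusted p = 0.053), Kmo in LKO under 5 alternatives (adjusted p up to 0.105) and the Kmo interaction with no filter on dim probes (adjusted p = 0.0605). Kynu's interaction was called under 5 of 10 alternatives (lowest adjusted p = 0.0324), Haao in LWT under 5 of 11 (lowest adjusted p = 0.00852), Qprt under CL316243 with normexp (adjusted p = 0.0473), and Nadk in LWT with the mean of probes (adjusted p = 0.0363). The cause was not tested. With the replicate block the counts were 9, 5, 4, 0 and 5 (LWT, LKO, interaction, vehicle, CL316243), against 39, 40.7, 5.71, 1.27 and 16.6% of all genes; Kmo in LKO was lost (adjusted p = 0.0581), and Kynu's interaction (adjusted p = 0.0487) and Haao in LWT (adjusted p = 0.0244) were gained.

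Leaving out each of 24 mice (1200 values) kept 1155, lost 18 calls, added 12 and turned 15 uncalled values. Values ran from -0.043 to 0.20 for Afmid and -0.12 to 0.30 for Nnmt between genotypes under CL316243, from -0.01 to 0.094 for Kynu and -0.17 to 0.17 for Nnmt under vehicle, from -0.003 to 0.044 for Nadk in LWT, and from -0.14 to 0.29 for Nnmt's interaction. The count under vehicle ran from 0 to 1. Without CL316243 replicate 3 of both genotypes, chosen after seeing the data, it was 1 (1.53% of all genes), the interaction count was 5, and Afmid under CL316243 was -0.028.

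These arrays give 1 time point, whole liver and RNA levels; NAD, its precursors and enzyme activity are not measured. Dim probes limit the second readouts of Haao and Qprt, and Tdo2, Acmsd and Nampt rest on 1 probe each.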
